A study of Mus musculus with 4 samples.

Results

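The receptor genes of myeloid cells followed here were the triggering receptors Trem1 and Trem2, their signalling partner Tyrobp, the C-type lectin receptors Clec4d, Clec4e, Clec4n and Clec7a, and the endocytic lectins Clec10a, Cd209a and Mrc1. The genes were chosen by symbol, and 10 of 10 were found. The study measured single-cell RNA in the ascending aorta of male wild-type (WT) mice with a drug-induced aortic dissection. The 2 AD-ABR libraries came from mice that received BAPN and paquinimod, an oral compound, at 10 mg/kg/d by gavage until the end of the experiment. The 2 AD libraries came from mice that received BAPN alone, at 1 g/kg/d in drinking water for 4 weeks from 3 weeks of age. BAPN blocks the cross-linking of collagen and elastin, so every group carries the dissection model and no aorta of an untreated mouse is compared here. The labels do not say whether the libraries of a group came from separate animals or from pools, so p-values measure the spread between these libraries. The comparison of AD-ABR with AD asks how the receptors differ when paquinimod, which binds S100A9, is added to the model.

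These receptors let myeloid cells read damage, lipids and microbial sugars. Trem1 and Trem2 have almost no signalling part of their own and act through Tyrobp, which encodes the adaptor DAP12. Clec4d (MCL), Clec4e (Mincle) and Clec4n (Dectin-2) use the related adaptor Fcer1g, and Clec7a (Dectin-1) carries its own motif; all of these routes recruit the kinase Syk and, for the lectins, the adaptor Card9 upstream of NF-kB. Clec10a, Cd209a and Mrc1 mainly take up glycoproteins, and Mrc1 (CD206) is a classical marker of tissue-resident macrophages. In the artery wall Trem1 is known from infiltrating neutrophils and monocytes, and Trem2 from lipid-handling macrophages.

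The kept cells numbered 8451 and 9872 in AD-ABR and 9154 and 9782 in AD, with 66197717 to 87522686 UMIs (unique molecular identifiers, which count captured RNA molecules) per library. The median UMIs per cell were 9452 and 8208 in AD-ABR and 5268 and 7185 in AD. Any pair of libraries shared 22 to 38 barcodes. Clusters of cells were named from lists of marker genes, after the type they resemble. The neutrophil-like cells numbered 21 and 10 in AD-ABR and 1630 and 230 in AD. The macrophage-like cells, in which non-resident, resident and monocyte-like clusters are joined, numbered 429 and 933 in AD-ABR and 1754 and 894 in AD. The dendritic-like cells numbered 66 and 105 in AD-ABR and 463 and 413 in AD. All 13 macrophage markers, all 10 resident macrophage markers, all 10 dendritic markers and all 9 mature dendritic markers were seen in every library, but only 11 of 15 neutrophil markers were, since Ly6g, Lcn2, Ngp and Camp were missing in at least 1 library. AD library 1 stood apart: it held 1182 of the 1199 cells of the neutrophil-like cluster M0 and 837 of the 857 cells of the macrophage-like cluster M1.

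On GRCm38, Trem1 (ENSMUSG00000042265) lies at chr17:48232768-48246924 and Trem2 (ENSMUSG00000023992) downstream of it at chr17:48346401-48354147. Clec4n (ENSMUSG00000023349, chr6:123229843-123247021), Clec4d (ENSMUSG00000030144, chr6:123262111-123275265) and Clec4e (ENSMUSG00000030142, chr6:123281789-123289870, minus strand) follow each other on chromosome 6, and Clec7a (ENSMUSG00000079293, chr6:129461591-129472779, annotated as a polymorphic pseudogene) lies further along it. Tyrobp (ENSMUSG00000030579) lies at chr7:30413760-30417585, Clec10a (ENSMUSG00000000318) at chr11:70156197-70170834, Cd209a (ENSMUSG00000031494) at chr8:3743397-3748984 and Mrc1 (ENSMUSG00000026712) at chr2:14229392-14332057. RefSeq (GRCm38.p6) promoters, 250 bases before to 50 after the gene start, were found for 7 of the 10 genes. The letters GAGGAA, the core bound by the myeloid factor PU.1, were searched on both strands and stood in 6 of these 7 promoters, all but that of Cd209a, and in 28.3% of 32851 promoters of the same length. The promoters of the 4 receptors that fell in macrophage-like cells are shown because they moved together there; capitals mark GAGGAA or its reverse complement TTCCTC.
Their windows are chr17:48232489-48232788 and chr17:48346151-48346450 (Trem1 and Trem2, plus strand), chr6:123261857-123262156 (Clec4d, plus strand) and chr6:123289822-123290121 (Clec4e, minus strand), each read 5′ to 3′ along the gene.
Trem1: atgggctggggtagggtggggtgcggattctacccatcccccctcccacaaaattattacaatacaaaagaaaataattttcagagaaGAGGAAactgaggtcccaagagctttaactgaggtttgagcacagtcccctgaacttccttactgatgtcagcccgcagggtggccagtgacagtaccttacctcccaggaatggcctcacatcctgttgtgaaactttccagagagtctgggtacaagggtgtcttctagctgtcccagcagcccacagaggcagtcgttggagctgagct
Trem2: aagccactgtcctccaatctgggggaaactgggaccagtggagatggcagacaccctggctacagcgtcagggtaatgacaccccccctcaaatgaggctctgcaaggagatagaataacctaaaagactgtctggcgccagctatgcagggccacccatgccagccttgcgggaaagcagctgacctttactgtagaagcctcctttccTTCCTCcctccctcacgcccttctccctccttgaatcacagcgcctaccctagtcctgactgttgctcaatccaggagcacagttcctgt
Clec4d: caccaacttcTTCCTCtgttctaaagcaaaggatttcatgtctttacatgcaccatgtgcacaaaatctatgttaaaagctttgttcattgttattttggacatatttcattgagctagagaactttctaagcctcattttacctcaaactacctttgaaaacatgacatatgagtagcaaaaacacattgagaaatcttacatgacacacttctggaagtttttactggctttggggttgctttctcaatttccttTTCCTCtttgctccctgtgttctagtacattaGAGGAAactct
Clec4e: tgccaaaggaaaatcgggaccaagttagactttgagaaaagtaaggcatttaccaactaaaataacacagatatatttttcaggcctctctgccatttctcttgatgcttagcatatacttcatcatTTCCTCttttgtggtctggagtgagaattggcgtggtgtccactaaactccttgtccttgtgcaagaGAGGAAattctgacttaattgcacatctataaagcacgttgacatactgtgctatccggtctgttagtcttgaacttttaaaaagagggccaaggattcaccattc
The core occurred once in the windows of Trem1 and Trem2, 3 times in that of Clec4d and 2 times in that of Clec4e. TTGCNNAA, a C/EBP-type motif held by 10.8% of promoters, stood in those of Trem2 and Clec4e. TGANTCA, the AP-1 motif held by 7.81% of promoters, stood in that of Trem2. An NF-kB motif held by 1.47% of promoters stood in none of the 7 windows. A match of letters is a description of the window.

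The receptors divided the myeloid cells among themselves. Levels are CPM, a gene's share of the UMIs summed over the cells of a type in a library, scaled to the same total in every sum, and they are described without a test. Orders of levels are over the 15 types with at least 10 cells in every library; monocyte-like cells (14 and 5 in AD-ABR, 66 and 53 in AD) and type 1 dendritic-like cells (9 and 24 in AD-ABR, 38 and 59 in AD) have fewer and are given apart, where a library holds 10. Trem1, which amplifies inflammatory signals in neutrophils, stood at 718 and 528 CPM in AD-ABR neutrophil-like cells and at 408 and 892 CPM in AD neutrophil-like cells. In monocyte-like cells it stood at 21.9 CPM in AD-ABR library 1 (2 UMIs) and at 175 and 139 CPM in AD. Its next levels among the 15 types lay in dendritic-like cells (21.8 to 34.0 CPM over the 4 libraries) and non-resident macrophage-like cells (6.75 to 22.4 CPM), whose ranges overlap. Trem2 had the opposite distribution. It stood at 268 and 421 CPM in AD-ABR and at 558 and 562 CPM in AD non-resident macrophage-like cells, and at 201 and 179 CPM in AD-ABR and 326 and 292 CPM in AD resident macrophage-like cells, so the types overlap in range. Trem2 had 0 UMIs in the AD-ABR neutrophil-like cells, where a count of 0 allows up to 58.2 and 144 CPM, and 26.2 and 30.7 CPM in the AD ones.

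Tyrobp was present in every myeloid type. It ranged from 3211 to 7781 CPM in neutrophil-like cells, above the 1782 to 2261 CPM of dendritic-like and the 1762 to 2235 CPM of non-resident macrophage-like cells, which overlap each other. The 3 Fcer1g-coupled lectins peaked in neutrophil-like cells as well. Clec4d ranged there from 447 to 794 CPM, Clec4e from 932 to 1878 CPM and Clec4n from 468 to 1340 CPM. Among the 15 types the non-resident macrophage-like cells came next for each of the 3 without overlap with the neutrophil-like ones, at 115 to 341 CPM for Clec4d, 105 to 157 CPM for Clec4e and 216 to 379 CPM for Clec4n. Monocyte-like cells lay higher than that for Clec4e, at 416 CPM in AD-ABR library 1 and 532 and 508 CPM in AD. They had 208 CPM of Clec4d in AD-ABR library 1 and 363 and 378 CPM in AD. Clec4n stood in them at 340 CPM in AD-ABR library 1 and 502 and 425 CPM in AD, which overlaps its neutrophil-like range. Clec7a, the receptor for beta-glucan, was the most widely shared of the lectins: its ranges in neutrophil-like (498 to 1126 CPM), mature dendritic-like (192 to 742 CPM) and dendritic-like cells (393 to 521 CPM) overlap.

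The endocytic lectins lay elsewhere. Cd209a, a mouse relative of human DC-SIGN, stood at 1221 and 1217 CPM in AD-ABR and at 599 and 900 CPM in AD dendritic-like cells, and at most at 29.1 CPM in any other of the 15 types. In monocyte-like cells it stood at 65.7 CPM in AD-ABR library 1 and 74.3 and 73.0 CPM in AD, and in type 1 dendritic-like cells at 74.0 CPM in AD-ABR library 2 and 35.1 and 29.8 CPM in AD. Clec10a, which binds galactose-type sugars, ranged from 435 to 524 CPM in dendritic-like and from 151 to 226 CPM in resident macrophage-like cells. Mrc1 stood at 2128 and 1932 CPM in AD-ABR and at 2977 and 1871 CPM in AD resident macrophage-like cells, above its 433 to 592 CPM in non-resident ones. Mature dendritic-like cells, which numbered 15 and 10 in AD-ABR and 64 and 40 in AD, had Tyrobp and Clec7a but at most 63.2 CPM of any of the other 8 receptors. Among the 10 non-myeloid types the highest level of every receptor was in the proliferating cells, which can include dividing myeloid cells, from 6.48 CPM for Trem1 to 835 CPM for Tyrobp.

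**Figure D1:**
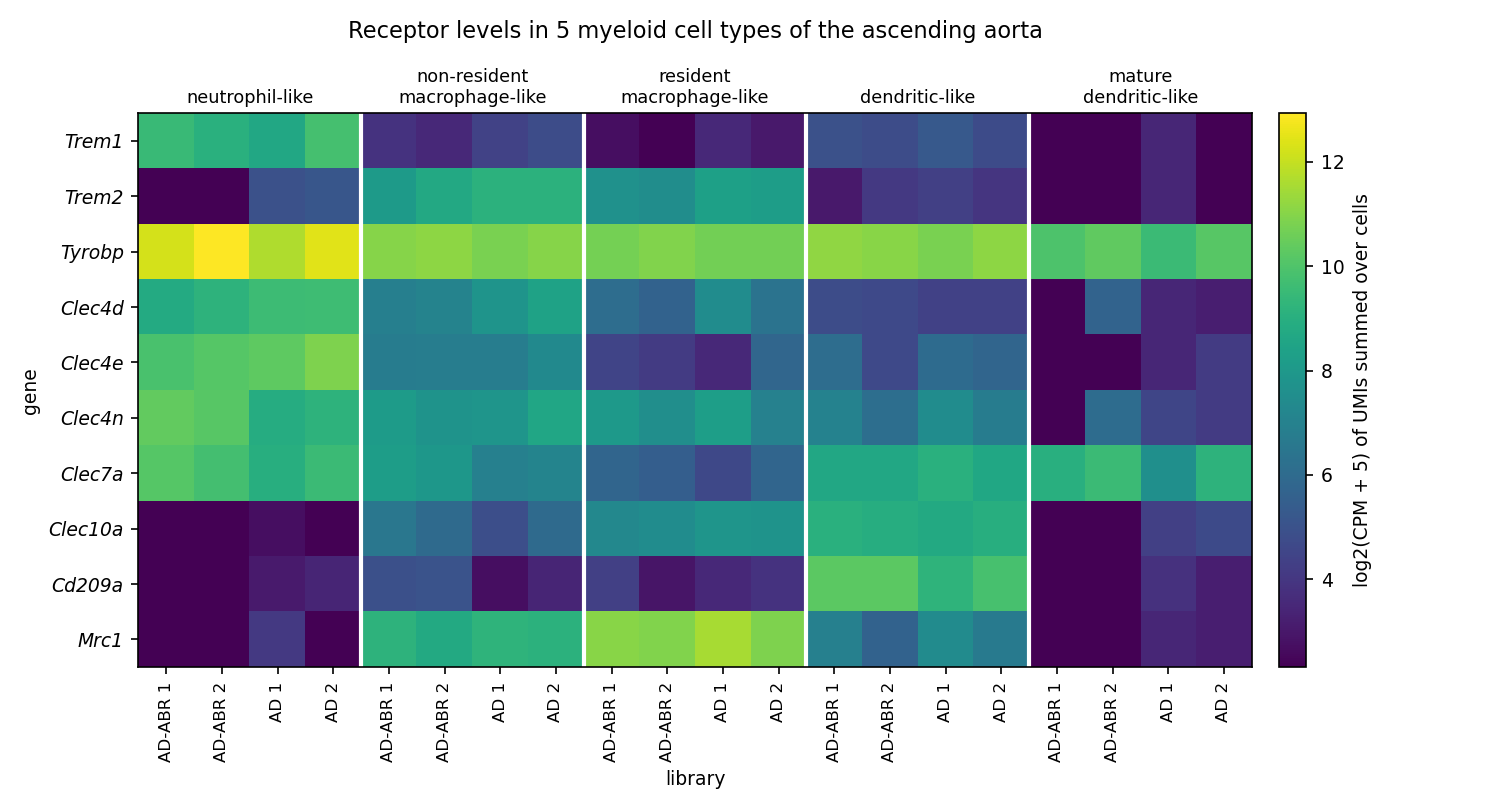
Levels of the 10 receptors (rows) as log2(CPM + 5) in each library (columns) of 5 myeloid cell types, lighter meaning higher. Trem1, Clec4d, Clec4e and Clec4n are highest in neutrophil-like cells, Trem2 and Mrc1 in macrophage-like cells, and Cd209a and Clec10a in dendritic-like cells.

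Likeness between patterns was measured as Pearson's r of log2(CPM + 5) over 60 sums (15 cell types in 4 libraries, which share each library's depth and free RNA) against 15466 genes. Clec4d and Clec4n, chromosome 6 neighbours, were like each other (r = 0.94), as were Trem1 and Clec4e (r = 0.92), Clec4d and Clec4e (r = 0.90) and Trem2 and Mrc1 (r = 0.89). Trem1 and Trem2, both on chromosome 17, were not (r = 0.19). The gene most like Tyrobp was Fcer1g (r = 0.98), the adaptor of the lectins. The gene most like Trem1 was Cd300lf (r = 0.97), an inhibitory receptor, followed by Trem3 (r = 0.96). Those most like Clec4d were Tlr13 (r = 0.94), then Clec4n and the Tyrobp-coupled lectin Clec5a (r = 0.94 each). The inhibitory receptor Pilra (r = 0.95) and Il1a (r = 0.94) were most like Clec4e, and Cd300ld and Cd14 (r = 0.97 and 0.96) most like Clec4n. The cytokine receptor chain Csf2rb, Cd80 and Il1b (r = 0.96 each) were most like Clec7a. The paralogue Mgl2 (r = 0.98) was most like Clec10a, Gm13373 (r = 0.93) most like Cd209a, Pf4 (r = 0.95) most like Trem2, and Fcgr1, C1qc and C1qb (r = 0.95 each) most like Mrc1.

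Summed over all cells, the tissue of paquinimod-treated mice held less Trem1 RNA. Trem1 stood at 1.04 and 0.845 CPM in AD-ABR against 21.8 and 6.48 CPM in AD, and it fell (log2 fold change -3.78 ± 0.61 SE, adjusted p = 0.0481, edgeR quasi-likelihood test over 20196 genes). It was 1 of the 10 receptors past the adjusted threshold of 0.05, beside 3.38% of all genes tested (0.975% higher and 2.4% lower). Clec4e (4.79 and 6.69 CPM in AD-ABR against 74.2 and 22.7 CPM in AD, -2.96 ± 0.57, adjusted p = 0.0582) and Clec4d (4.74 and 8.91 CPM in AD-ABR against 67.8 and 26.5 CPM in AD, -2.67 ± 0.52, adjusted p = 0.0592) missed it. The values of 9 receptors were lower in both AD-ABR libraries than in either AD library, and Mrc1 overlapped (48.8 and 85.7 CPM in AD-ABR, 110 and 54.4 CPM in AD). How many of all genes did not overlap was not counted, so the separation is a description only. DESeq2 called 3703 genes in this sum, with the 9 receptors among them. DESeq2 called those 9 lower, and without either AD-ABR library or with a replicate block edgeR called none. With no filter on low counts the call of Trem1 was lost (-3.75, adjusted p = 0.115) and Cd209a was called lower. In such a sum, fewer cells of a type and less RNA per cell cannot be told apart. The neutrophil-like share of kept cells was 0.248 and 0.101% in AD-ABR and 17.8 and 2.35% in AD, and its part in these values was not tested.

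The source of the RNA differed between receptors and groups. Neutrophil-like cells held 41.6 and 15.1% of all Trem1 UMIs in AD-ABR and 72.4 and 56.3% in AD. They held 11.8 and 3.98% of Clec4e UMIs in AD-ABR and 65.2 and 33.8% in AD, and 5.69 and 1.56% of Clec4d UMIs in AD-ABR and 43.4 and 12.2% in AD. Macrophage-like cells held 85.6 to 90.5% of Trem2 UMIs and 82.4 to 91.3% of Mrc1 UMIs in every library. Clec10a divided between types by group: macrophage-like cells held 46.7 and 55.97% of its UMIs in AD-ABR and 16.5 and 24.8% in AD, and dendritic-like cells 42.3 and 38.0% in AD-ABR and 74.9 and 71.3% in AD. Myeloid cells together held 84.4 to 97.3% of the UMIs of each receptor.

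**Figure D2:**
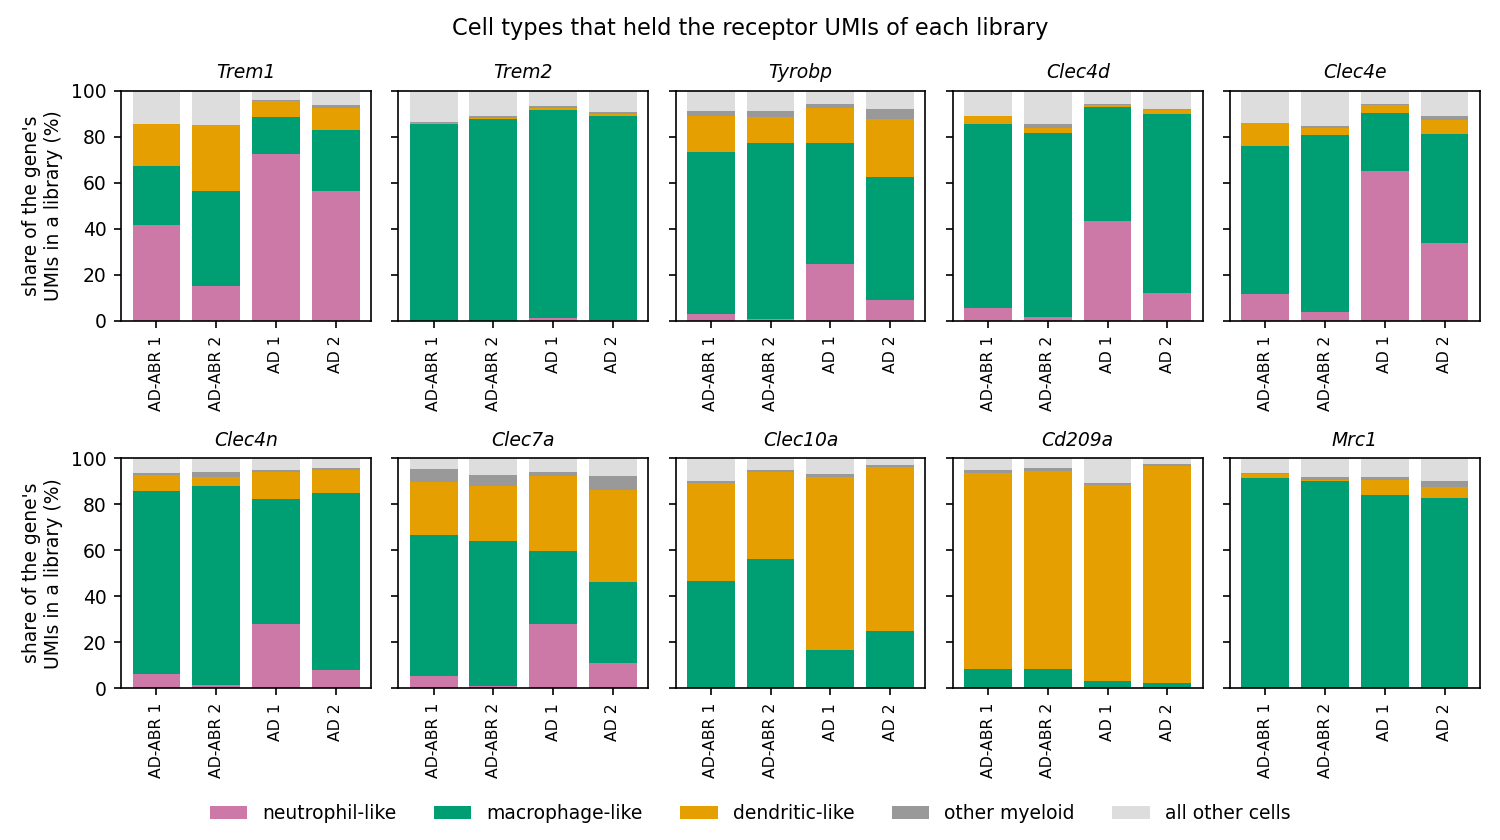
Share (%) of each receptor's UMIs held by each cell type, 1 bar per library with the AD-ABR libraries on the left of each panel. The neutrophil-like part of Trem1, Clec4d and Clec4e is larger in AD 1 and AD 2 (72.4 and 56.3% of Trem1) than in AD-ABR (41.6 and 15.1%).

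Within all myeloid cells the tests called 4 of the 10 receptors, beside 4.35% of 13080 genes (2.13% higher and 2.22% lower). Trem1 fell (18.1 and 7.96 CPM in AD-ABR against 86.6 and 55.8 CPM in AD, -2.57 ± 0.43, adjusted p = 0.0453). Clec4d fell (85.6 and 84.5 CPM in AD-ABR against 265 and 225 CPM in AD, -1.58 ± 0.16, adjusted p = 0.0122), and so did Clec4e (83.7 and 62.6 CPM in AD-ABR against 289 and 186 CPM in AD, -1.76 ± 0.26, adjusted p = 0.0231). Mrc1 rose (927 and 872 CPM in AD-ABR against 419 and 449 CPM in AD, 1.00 ± 0.17, adjusted p = 0.0263). Tyrobp, which every myeloid type expresses, did not pass the threshold (1954 and 2052 CPM in AD-ABR against 1966 and 2094 CPM in AD, -0.069 ± 0.17). With no doublet removal 1 call was left, that of Clec4d; without AD-ABR library 1 the call of Trem1 was left, without AD-ABR library 2 none was, and without AD library 1 the call of Trem1 was lost (-2.24). The myeloid cells of the groups are of different types, and the tests within types address that part only. Clusters inside a type can differ between the groups too, as given next for macrophage-like cells.

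The macrophage-like cells themselves had different make-ups. Clusters M1 (leading genes Cd72 and Ms4a7), M2 (Arg1, Ppbp and Cxcl3) and M9 (Arg1 and Syngr1) made up 1.40 and 0.536% of them in AD-ABR and 90.5 and 41.9% in AD. The resident cluster M3 (Cd163, Folr2 and F13a1), M6 (Mmp12 and Ms4a7) and M7 (Ccl12 and Rsad2) made up 95.3 and 98.9% in AD-ABR and 5.76 and 52.1% in AD. The monocyte-like cluster M11 made up the rest, 3.26 and 0.536% in AD-ABR and 3.76 and 5.93% in AD. M1 came almost wholly from AD library 1, with 47.7% of that library's macrophage-like cells and 1.79% of those of AD library 2. The receptor levels differed among these clusters. In AD libraries 1 and 2, Clec4d stood at 410 and 571 CPM in M2, against 36.7 and 31.0 CPM in M1, and Trem2 at 745 and 725 CPM in M9. In the same libraries Mrc1 stood at 2977 and 1871 CPM in M3 and at 322 and 507 CPM in M1. The clusters were built without the 10 receptors among the variable genes, and these levels are described without a test.

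**Figure D3:**
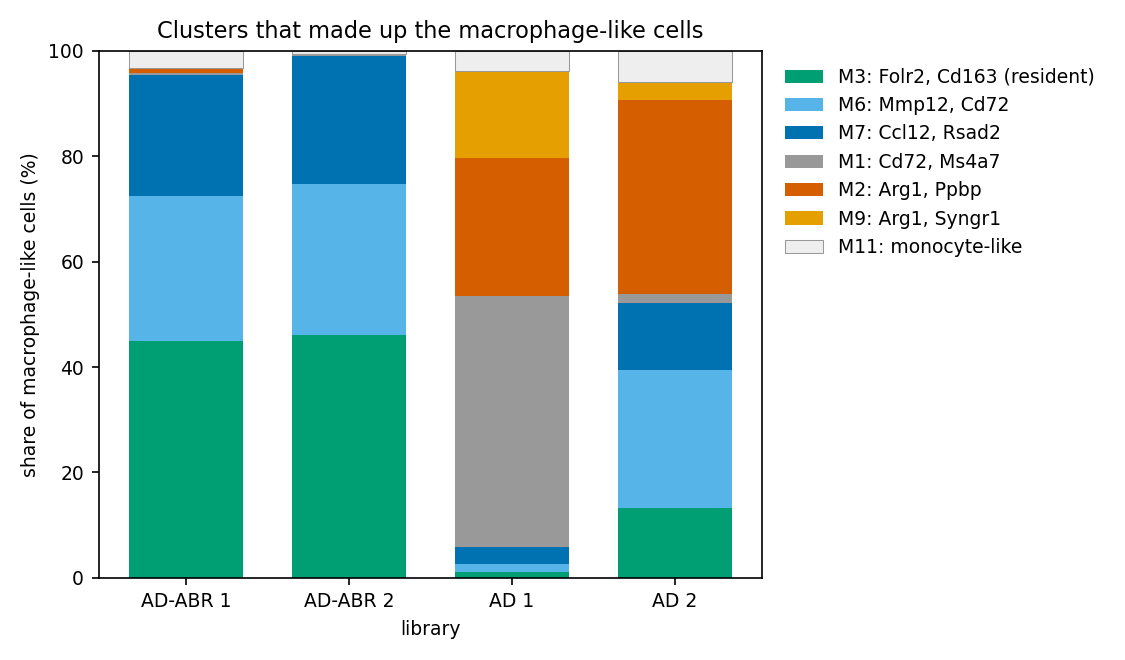
Share (%) of macrophage-like cells in each cluster, 1 bar per library, AD-ABR on the left. M3, M6 and M7 fill 95.3 and 98.9% of the AD-ABR bars, and M1, M2 and M9 fill 90.5 and 41.9% of the AD bars. The monocyte-like M11 fills 3.26 and 0.536% of the AD-ABR bars and 3.76 and 5.93% of the AD bars.

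In macrophage-like cells as a whole, 6 of the 10 receptors passed the threshold, 4 lower and 2 higher, beside 8.87% of 11977 genes tested (4.63% lower and 4.23% higher). The clusters that make up the cells, given above, differ between the groups, and so these values join a change of cluster with a change within clusters. Trem1 had 7.02 and 4.73 CPM in AD-ABR and 24.0 and 26.5 CPM in AD, and it fell by 2.19 ± 0.24 on the log2 scale (adjusted p = 0.0012). These values rest on 23 and 30 Trem1 UMIs in AD-ABR and 235 and 152 in AD. Of them the monocyte-like cluster M11 held 2 and 5 in AD-ABR and 87 and 42 in AD. Clec4d had 98.3 and 96.9 CPM in AD-ABR and 227 and 314 CPM in AD, and it fell by 1.502 ± 0.18 (adjusted p = 0.0020). Its partner Clec4e had 80.0 and 69.8 CPM in AD-ABR and 127 and 164 CPM in AD, and it fell by 0.99 ± 0.17 (adjusted p = 0.0089). Trem2 had 235 and 320 CPM in AD-ABR and 540 and 515 CPM in AD, and it fell by 0.96 ± 0.18 (adjusted p = 0.0136). All 4 were lower in both AD-ABR libraries than in either AD library, a separation that was not counted over all genes. Without AD library 1 and without AD library 2 all 6 calls held; without AD-ABR library 1 those of Trem1 and Clec4d did, and without AD-ABR library 2 that of Trem1 alone did.

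The 2 receptors that rose were endocytic lectins. Mrc1 had 1158 and 1050 CPM in AD-ABR and 622 and 682 CPM in AD (log2 fold change 0.72 ± 0.15, adjusted p = 0.0189), and its call was lost with no doublet removal (0.66, adjusted p = 0.0889) and with a crossed replicate block (0.72, adjusted p = 0.0774). Cd209a had 22.3 and 17.5 CPM in AD-ABR and 5.42 and 9.75 CPM in AD (1.38 ± 0.29, adjusted p = 0.0233), and its call was lost with no doublet removal (0.25), with a mitochondrial limit of 10%, with the receptors among the variable genes and at resolution 0.5. The dendritic markers summed to 95.6 and 89.6 CPM in AD-ABR macrophage-like cells and to 71.2 and 59.9 CPM in AD ones, with none of the 10 at 0 in every library; the part of dendritic RNA was not tested. The 15 neutrophil markers, which bear on Trem1, Clec4d and Clec4e, summed to 129 and 96.4 CPM in AD-ABR and to 309 and 170 CPM in AD macrophage-like cells, with Ly6g at 0 throughout, against 21134.5 to 41742 CPM in the neutrophil-like cells themselves; their part was not tested. Tyrobp (1931 and 2110 CPM in AD-ABR against 1790 and 2010 CPM in AD), Clec4n, Clec7a and Clec10a did not pass the threshold, with log2 fold changes of 0.055, -0.35, 0.25 and 1.06.

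**Figure D4:**
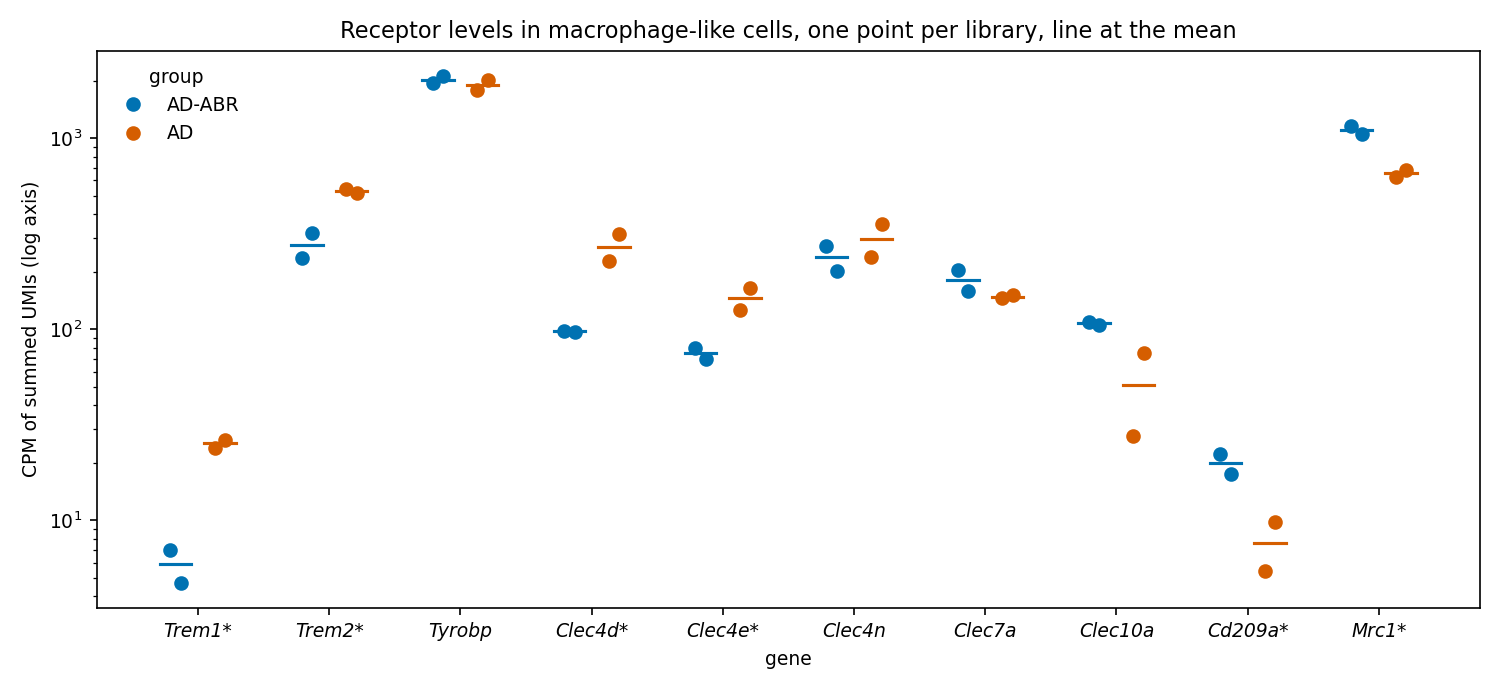
CPM (log axis) of the 10 receptors in macrophage-like cells, 1 point per library, AD-ABR left of AD, with a line at each group's mean; an asterisk marks an adjusted p under 0.05. Trem1 (7.02 and 4.73 against 24.0 and 26.5 CPM), Trem2, Clec4d and Clec4e lie lower in AD-ABR, and Cd209a and Mrc1 higher.

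Detection was also counted cell by cell. Trem1 was detected in 3.96 and 2.36% of AD-ABR and in 9.75 and 11.6% of AD macrophage-like cells, although the AD cells were the shallower ones (median 7206 and 6299 UMIs in AD-ABR, 4996.5 and 5843.5 UMIs in AD). After each cell was thinned to 1000 UMIs, which left out 1 to 29 cells per library, the Trem1 shares were 0.467 and 0% in AD-ABR (0 of 924 cells, with an exact upper limit of 0.398%) and 2.32 and 2.03% in AD. In the thinned cells Clec4d was detected in 7.01 and 7.79% of AD-ABR and in 14.3 and 20.4% of AD cells, against 31.2 and 28.2% and 40.0 and 55.1% unthinned. Trem2 was detected in 18.2 and 22.2% of AD-ABR and in 34.7 and 32.5% of AD thinned cells, against 57.8 and 58.0% and 75.3 and 75.1% unthinned. In smooth muscle-like cells, which should lack these receptors, the unthinned shares reached at most 1.10% for Trem1, 1.56% for Clec4d and 2.50% for Trem2, each in AD library 1. Median depths there were 8247 to 10957.5 UMIs. The same maxima, also in AD library 1, were 0.720, 2.34 and 2.61% in fibroblast-like and 1.57, 3.14 and 2.09% in endothelial-like cells. Trem1 was found in 0.0322 and 0.0791% of AD-ABR and 1.10 and 0.131% of AD smooth muscle-like cells. That background was higher in AD, as in macrophage-like cells, and its part in their shares was not tested. In macrophage-like cells, exact 95% intervals of the unthinned Trem1 share ran from 2.33 to 6.27% and from 1.48 to 3.55% in the AD-ABR libraries. In the AD libraries they ran from 8.40 to 11.2% and from 9.60 to 13.9%. The intervals cover counting error only. Both Trem1 and Trem2 were detected, unthinned, in 2.56 and 1.18% of AD-ABR and 8.04 and 9.84% of AD macrophage-like cells. Trem1 without Trem2 was detected in 1.40 and 1.18% in AD-ABR and 1.71 and 1.79% in AD. Since Trem2 was detected in most of these cells, many cells with Trem1 hold it by its share alone. Whether the joint share exceeds that was not tested.

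Inside single clusters that had at least 10 cells in every library, less was called. M3, M6 and M7 were also summed together, an alternative chosen after seeing the data. There 0 of the 10 receptors passed in edgeR or DESeq2, beside 277 of 10460 genes in edgeR. At an unadjusted p under 0.05 in edgeR there were 6 receptors (Trem1, Trem2, Clec4d, Clec4n, Clec7a and Cd209a). All genes were not counted at that limit, so the 6 cannot be set beside a share of all genes. The log2 fold changes were -1.501 ± 0.36 for Trem1, -0.54 ± 0.19 for Trem2, -0.56 ± 0.19 for Clec4d, -0.27 ± 0.50 for Clec4e and 0.0062 ± 0.22 for Mrc1. The resident cluster M3 had 193 and 429 cells in AD-ABR and 18 and 119 in AD. In M3, 0 of 8 receptors tested passed in edgeR or DESeq2, beside 1.72% of 7798 genes in edgeR (0.551% higher and 1.17% lower). At an unadjusted p under 0.05 in edgeR there were 3 receptors (Trem2, Clec4d and Clec4e), beside 1122 of those genes. Trem2 stood there at 201 and 179 CPM in AD-ABR against 326 and 292 CPM in AD (-0.66 ± 0.20, adjusted p = 0.109). In M7, 0 of 8 passed in either tool, beside 2.7% of 6582 genes in edgeR (0.805% higher and 1.9% lower). Unadjusted, 4 receptors were under 0.05 there, beside 887 of those genes. Mrc1 within M3 (2128 and 1932 CPM in AD-ABR, 2977 and 1871 CPM in AD, -0.20 ± 0.22) and M7 (964 and 667 CPM in AD-ABR, 1114 and 1179 CPM in AD, -0.50 ± 0.23) lay on the other side of 0 from its value in all macrophage-like cells. It also did so in M6 (317 and 285 CPM in AD-ABR, 678 and 384 CPM in AD, -0.67 ± 0.25). Over all non-resident macrophage-like cells it was -0.16 ± 0.18. The rise called for all macrophage-like cells was thus seen in none of M3, M6 and M7.

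Clec7a was the receptor that passed the test within a cluster. In M6, with 118 and 268 cells in AD-ABR and 27 and 234 in AD, it had 331 and 289 CPM in AD-ABR and 169 and 121 CPM in AD, and it rose (1.26 ± 0.22, adjusted p = 0.0227), as 1 of the 10 receptors tested beside 0.658% of 8356 genes (0.443% higher and 0.215% lower); the call was lost without either AD-ABR library. In M7 it had 249 and 163 CPM in AD-ABR and 138 and 72.8 CPM in AD (1.05 ± 0.29, adjusted p = 0.0563). Clec4n had 270 and 215 CPM in AD-ABR against 127 and 133 CPM in AD in M6 (0.96 ± 0.22, adjusted p = 0.0721) and 263 and 217 CPM in AD-ABR against 127 and 136 CPM in AD in M7 (0.85 ± 0.23, adjusted p = 0.0526), and missed the threshold in both. In M6 Cd209a had 39.6 and 43.0 CPM in AD-ABR and 0 and 13.05 CPM in AD, where a count of 0 allows 14.1 CPM (adjusted p = 0.0524). The dendritic markers in M6 summed to 174 and 179 CPM in AD-ABR and to 84.7 and 84.5 CPM in AD, with none at 0 in every library; dendritic-like cells also hold Clec7a and Cd209a, and the part of their RNA was not tested.

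Over all non-resident macrophage-like cells (M1, M2, M6, M7 and M9), 3 of 10 receptors passed beside 3.34% of 11067 genes (1.7% higher and 1.64% lower). Clec7a rose (295 and 238 CPM in AD-ABR against 119 and 134 CPM in AD, 1.10 ± 0.17, adjusted p = 0.0095), and its estimate with no doublet removal was 0.41 and not past the threshold. Cd209a rose (24.9 and 28.1 CPM in AD-ABR against 1.64 and 5.82 CPM in AD, 3.004 ± 0.50, adjusted p = 0.0300) and was 0.64 and uncalled with no doublet removal. Its call was also lost with a mitochondrial limit of 10% (2.91), with the receptors among the variable genes (2.70) and at resolution 0.5 (1.29). Clec4d fell (115 and 128 CPM in AD-ABR against 220 and 341 CPM in AD, -1.17 ± 0.22, adjusted p = 0.0210). Trem1 missed the threshold (9.84 and 6.75 CPM in AD-ABR against 16.1 and 22.4 CPM in AD, -1.22 ± 0.29, adjusted p = 0.0547). Trem2 missed it too (268 and 421 CPM in AD-ABR against 558 and 562 CPM in AD, -0.67 ± 0.22, adjusted p = 0.149). For Clec4e the groups overlapped (105 and 109 CPM in AD-ABR against 106 and 157 CPM in AD, -0.27 ± 0.20, adjusted p = 0.518). None of the 3 calls held without either AD-ABR library, and all 3 held without either AD library.

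**Figure D5:**
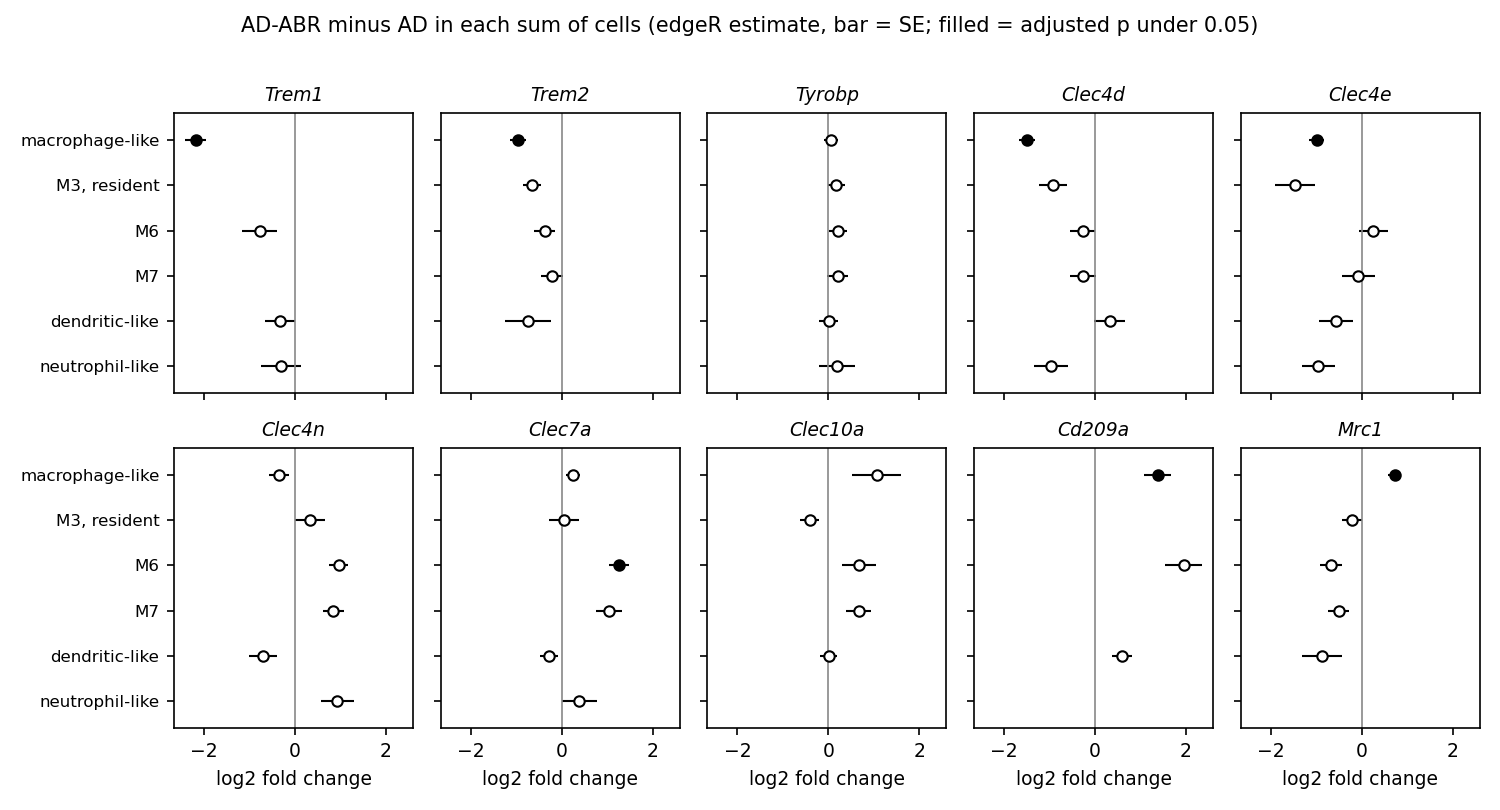
Log2 fold change (AD-ABR minus AD, bars 1 SE) of each receptor in macrophage-like cells, in their clusters M3, M6 and M7, and in dendritic-like and neutrophil-like cells; filled points passed the adjusted threshold and untested sums have no point. Trem1 and Clec4d lie at -2.19 and -1.502 in macrophage-like cells, and Clec7a at 1.26 in M6.

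In dendritic-like cells the test separated no receptor. None of the 10 receptors passed in edgeR or DESeq2, beside 2% of 8460 genes in edgeR (0.567% higher and 1.43% lower). At an unadjusted p under 0.05 in edgeR there were 2 receptors, Clec4n and Cd209a, beside 1231 of those genes. Cd209a had 1221 and 1217 CPM in AD-ABR and 599 and 900 CPM in AD (0.59 ± 0.22, adjusted p = 0.213), with AD library 1 the lowest. Clec10a had 524 and 489 CPM in AD-ABR and 435 and 500 CPM in AD (0.0076 ± 0.19), and Clec7a 408 and 406 CPM in AD-ABR and 521 and 393 CPM in AD (-0.27 ± 0.20). A UMI of both Cd209a and Clec10a was found in 71.2 and 70.5% of AD-ABR and 48.8 and 62.7% of AD dendritic-like cells. Cd209a itself was found in 86.4 and 90.5% of AD-ABR and 64.4 and 81.4% of AD cells. Clec10a was found in 74.2 and 77.1% in AD-ABR and 62.9 and 71.4% in AD. Whether the joint share exceeds what such common genes give by their own shares was not tested. These shares are unthinned, at median depths of 9130 and 8751 UMIs in AD-ABR and 5882 and 6002 UMIs in AD. In cells thinned to 1000 UMIs, Cd209a was found in 45.5 and 57.1% in AD-ABR and 33.6 and 49.6% in AD. Clec10a was then found in 39.4 and 32.4% in AD-ABR and 29.1 and 33.3% in AD, so the groups overlapped for both genes. The joint share was not counted in thinned cells. With a replicate block 3 receptors passed, Clec4n and Mrc1 lower (-0.68 and -0.89) and Cd209a higher (0.62). Without AD-ABR library 1 Clec4e, Clec4n and Mrc1 passed (lower), and without AD library 2 Clec4n and Mrc1 (lower) and Cd209a (higher).

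Neutrophil-like cells of AD-ABR rest on 21 and 10 cells, with 51506 and 20819 UMIs. There 0 of 6 receptors tested passed, beside 0% of 3128 genes in edgeR and 0 genes in DESeq2. At an unadjusted p under 0.05 in edgeR there were 3 receptors, beside 301 of those genes. Clec4d had 447 and 576 CPM in AD-ABR and 760 and 794 CPM in AD (-0.97 ± 0.37, adjusted p = 0.510). Clec4e had 932 and 1105 CPM in AD-ABR and 1250 and 1878 CPM in AD (-0.95 ± 0.37, adjusted p = 0.510), and Clec4n 1340 and 1153 CPM in AD-ABR and 468 and 581 CPM in AD (0.93 ± 0.36, adjusted p = 0.510). The groups of these 3 genes and of Clec7a (1126 and 865 CPM in AD-ABR against 498 and 749 CPM in AD, 0.39 ± 0.38) did not overlap, and those of Trem1 did (718 and 528 CPM in AD-ABR against 408 and 892 CPM in AD, -0.30 ± 0.44). How many of the 3128 genes did not overlap was not counted, so the separation is a description only. Neutrophil-like values too join clusters: M0 had 4 and 1 cells in AD-ABR and 1182 and 12 in AD. Trem1 stood in M0 at 248 CPM in AD library 1 and 1147 CPM in AD library 2. In M5 it stood at 698 CPM in AD-ABR library 1 and at 802 and 878 CPM in AD. The part of the clusters was not tested. In mature dendritic-like cells 2 receptors could be tested, Tyrobp and Clec7a, and 0 passed beside 0% of 2291 genes (0 at an unadjusted p under 0.05; DESeq2 0 receptors and 2 genes).

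The difference of the treatment effect between macrophage-like and dendritic-like cells was tested in 1 model with the library as a block, and 2 of 10 receptors passed beside 1.95% of 11115 genes. Clec4d fell by 1.502 in macrophage-like cells and had 0.33 in dendritic-like cells on the log2 scale, a difference of -1.81 ± 0.31 (adjusted p = 0.0032). Trem1 fell by 2.19 in macrophage-like cells and had -0.33 in dendritic-like cells, a difference of -1.86 ± 0.41 (adjusted p = 0.0214). Both were lost without AD-ABR library 2. The effects on Mrc1 (difference 1.60 ± 0.48) and Cd209a (0.76 ± 0.22) were not separated, with adjusted p = 0.273 and 0.0998.

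Other genes of the same pathways were read from 7 lists. Shares of all genes that rose and fell were 4.23 and 4.63% in macrophage-like cells and 0.551 and 1.17% in resident macrophage-like cells. They were 0.443 and 0.215% in M6, 0.805 and 1.9% in M7, and 0.567 and 1.43% in dendritic-like cells. The macrophage-like list values again join a change of cluster with a change within clusters. Among the other C-type lectin receptors, 7 of 17 tested rose in macrophage-like cells and 0 fell, with a median log2 fold change of 0.94 against -0.0045 over all 11977 genes. Clec4a1 (268 and 239 CPM in AD-ABR against 120 and 139 CPM in AD, 0.94 ± 0.15), Clec4a2 (296 and 239 CPM in AD-ABR against 156 and 134 CPM in AD, 0.84 ± 0.17) and Clec4a3 (274 and 215 CPM in AD-ABR against 134 and 122 CPM in AD, 0.90 ± 0.16), lectins of the same subfamily, were among the 7, as was the scavenger receptor Colec12 (61.1 and 68.2 CPM in AD-ABR against 11.3 and 21.4 CPM in AD, 1.99 ± 0.28). The same 3 genes rose in M7 with Clec4b1 (230 and 143 CPM in AD-ABR against 67.1 and 34.8 CPM in AD, 1.98 ± 0.32), 4 of 9 tested, and Clec4b1 rose in M6 (92.4 and 83.2 CPM in AD-ABR against 18.8 and 26.1 CPM in AD, 1.87 ± 0.26), 1 of 11. In resident macrophage-like (14 tested) and dendritic-like cells (12 tested) 0 of this list passed. These paralogues are similar in sequence, and 3′ reads may be divided unevenly among them.

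Genes placed downstream of the lectins were read as a list, and no link of their values to the receptors was tested. Of the cytokine and feedback genes of the Card9 and NF-kB route, 5 of 15 fell and 1 rose in macrophage-like cells. Beside them 4.63% of all genes fell and 4.23% rose, and the median of the list was -0.46. Ptgs2, the inducible prostaglandin enzyme, had 51.3 and 31.5 CPM in AD-ABR and 190 and 162 CPM in AD (-2.15 ± 0.23), and Tnfaip3, a feedback inhibitor, 257 and 228 CPM in AD-ABR and 417 and 414 CPM in AD (-0.81 ± 0.15); Csf3 fell on 0 and 1 UMIs in AD-ABR and 47 and 19 in AD, and Egr3 rose (1.17 ± 0.16). Within clusters, Tnf fell in M7 (539 and 550 CPM in AD-ABR against 1282 and 2147 CPM in AD, -1.67 ± 0.25), where 3 of 13 fell beside 1.9% of all genes. Tnf also fell in resident macrophage-like cells (293 and 228 CPM in AD-ABR against 831 and 554 CPM in AD, -1.34 ± 0.22), where 4 of 13 fell beside 1.17% of all genes. In M6 0 of 12 fell and Cxcl2, a neutrophil chemoattractant, rose (1.05 ± 0.21). In dendritic-like cells Ccl4 (842 and 608 CPM in AD-ABR against 4600 and 2296 CPM in AD, -2.37 ± 0.31), Ccl3 and Il12b fell and Cxcl2 rose, of 14 tested.

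Of the lipid-handling genes often seen with Trem2, 3 of 16 fell in macrophage-like cells beside 4.63% of all genes, with a median of -0.48. They were Spp1, osteopontin (345 and 141 CPM in AD-ABR against 1949 and 1677 CPM in AD, -2.95 ± 0.50), the lysosomal protease Ctsd (698 and 883 CPM in AD-ABR against 2603 and 3051 CPM in AD, -1.87 ± 0.18) and the cholesterol exporter Abca1 (-0.56 ± 0.15). Spp1 also fell within resident macrophage-like cells (2.39 and 4.58 CPM in AD-ABR against 26.6 and 47.6 CPM in AD, -3.43 ± 0.47), M7 (47.4 and 41.2 CPM in AD-ABR against 335 and 272 CPM in AD, -2.77 ± 0.25) and dendritic-like cells (-2.05 ± 0.36). Lgals3 rose in M7 (1.28 ± 0.27) and dendritic-like cells (0.96 ± 0.21). Of 22 Syk and Card9 genes, Malt1 (101 and 71.7 CPM in AD-ABR against 226 and 224 CPM in AD, -1.43 ± 0.18) and Lat2 (-0.65 ± 0.14) fell and Bcl10 rose (0.58 ± 0.14) in macrophage-like cells, with a median of 0.089. Malt1, the protease that acts with Card9 and Bcl10, also fell in M7 (-1.28 ± 0.34) and dendritic-like cells (-1.05 ± 0.20), where Syk fell too (179 and 130 CPM in AD-ABR against 262 and 251 CPM in AD, -0.85 ± 0.21).

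Of 11 inhibitory receptors tested in macrophage-like cells, Cd300lf (6.72 and 6.14 CPM in AD-ABR against 31.5 and 25.9 CPM in AD, -2.21 ± 0.21) and Pilra (-0.72 ± 0.17) fell, and Cd300a (0.71 ± 0.16) and Cd33 (0.69 ± 0.17) rose. Cd300a also rose in M6 (149 and 165 CPM in AD-ABR against 65.9 and 52.2 CPM in AD, 1.58 ± 0.23) and in resident macrophage-like cells (1.14 ± 0.25). Among 12 relatives and partners of the Trem receptors, Treml2 fell (-2.59 ± 0.40) and the activating receptor Pilrb2 rose (0.96 ± 0.20). Of 6 ligands and sheddases, Adam10, a protease that cleaves Trem2 from the cell surface, fell (58.9 and 60.6 CPM in AD-ABR against 108 and 95.9 CPM in AD, -0.81 ± 0.15). In neutrophil-like cells 0 genes of any list passed.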

How the data were processed

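Single-cell RNA of 4 mouse ascending aorta libraries was measured as UMI counts per gene and cell. The count matrices were deposited by the authors as raw counts. The submitters' processing notes name STAR, Cell Ranger 6.0, Seurat 4.0 and GRCm38, and the matrices carry Cell Ranger 7.1.0 per the file headers; which release made the counts is not resolved. The libraries held 76142840 to 99572011 UMIs in 9230 to 11161 barcodes.

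Cells with at least 200 genes and under 20% mitochondrial UMIs were kept. The top Scrublet scores were removed as doublets (0.8% per 1000 barcodes, 665 to 934 cells per library), since the caller's own threshold marked 0.0101% in AD library 1 and so had not worked there. Cells were clustered in 2 steps (scanpy 1.11.5, leidenalg 0.10.2, 2000 variable genes without the receptors and lists, 30 components, 15 neighbours, resolution 1.0) and named from marker lists. No deposited annotation was used, so differences from the study's own types may come from these rebuilt names. UMIs were summed per library and type. edgeR 4.0.16 (R 4.3.3; TMM, filterByExpr, robust quasi-likelihood) compared AD-ABR with AD over all genes with Benjamini-Hochberg adjustment, and SE is the log2 fold change over the square root of F. The interaction fit had the library as a block. DESeq2 1.42.0 was an alternative, as were other filters, clusterings and left-out libraries. The edgeR step was tested on simulated counts drawn from a common mean profile with planted changes. Those counts held no shift of clusters between groups and no outlying library, so the test does not bear on either. With 2 libraries a group an exact permutation test cannot go below p = 0.333, so none was used. Fits share libraries and nested cells. Intervals and floors (3 counts) cover counting error only.

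Named are the 10 receptors, up to 4 called genes per list and type with the smallest adjusted p, and the 3 genes most like each receptor, of which some are printed. The receptors and lists were chosen with earlier results of these data known. Gene coordinates are GENCODE M21 (GRCm38), in which 52081 of 55357 IDs were found.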

Additional observations from a re-analysis of the deposited data

Results flagged for a closer look

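The effect of paquinimod differed between macrophage-like and dendritic-like cells for 2 receptors, by a test of the difference itself with the library as a block. For Trem1 the difference of the log2 fold changes was -1.86 ± 0.41 (adjusted p = 0.0214), and for Clec4d it was -1.81 ± 0.31 (adjusted p = 0.0032). Without AD-ABR library 2 the differences were -1.57 for Trem1 and -1.80 for Clec4d and neither passed the threshold; both passed without any other single library. The macrophage-like cells of the groups come from different clusters, as given in the report, and the part of that in the differences was not tested. The dendritic-like value of Clec4d rests on 14 and 19 UMIs in AD-ABR and 45 and 39 in AD. Its sign changed with no doublet removal and with the receptors among the variable genes, uncalled in each fit. The difference itself was not refitted under those settings.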

How the results depend on the processing

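Of 1106 values of single receptors under an alternative, 958 kept their side of the threshold with no called value changing sign (in 60 of them the sign changed with neither fit past it), 52 were no longer past it, 95 were newly past it and 1 reversed: Cd209a in all myeloid cells was 0.66 without AD library 2 (adjusted p = 0.000382) -0.46 without AD library 1 and -0.0083 with all libraries. Leaving out single libraries gave 1 to 8 receptors called in macrophage-like cells (6 with all libraries), 0 to 6 in non-resident (3), 0 to 3 in resident (0), 0 to 3 in dendritic-like (0), 0 to 1 in mature dendritic-like (0), 0 in neutrophil-like (0), 0 to 6 in M6 (1), 0 to 1 in M7 (0), 0 to 7 in all myeloid (4) and 0 to 6 in all kept cells (1), and 0 to 6 for the difference between types (2). With no filter on low counts the counts were 5 in non-resident, 1 in resident, 1 in dendritic-like, 3 in M6, 1 in M7 and 5 for the difference between types. With no doublet removal they were 4 in macrophage-like (Mrc1 and Cd209a lost), 1 in non-resident macrophage-like and 1 in all myeloid cells. A mitochondrial limit of 10% gave 1 in resident and 1 in dendritic-like cells, and receptors among the variable genes gave 1 in resident cells. With clusters M3, M6 and M7 joined the macrophage-like count was 0, and DESeq2 gave 9 in all kept cells. The cause of these moves was not tested. The replicate numbers share only a number (same-numbered deviations correlated at -0.12 in all kept, 0.13 in macrophage-like and 0.10 in dendritic-like cells); a replicate block gave 1 receptor in resident, 3 in dendritic-like, 3 in M6, 3 in M7 and 0 in all kept cells. A crossed replicate block, added after seeing the data, gave 5 in macrophage-like (Mrc1 lost), 3 in all myeloid (Trem1 lost), 5 in non-resident, 1 in dendritic-like, 3 in M6, 1 in M7 and 9 in all kept cells. Over all genes DESeq2 called 64 in resident cells (edgeR 134), 30 in M6 (55), 84 in M7 (178), 863 in all myeloid (569) and 3703 in all kept cells (682). M6 and M7 have no values under other clusterings. The difference between types has none with DESeq2, with no doublet removal, with a mitochondrial limit of 10% or under other clusterings. The 21 and 10 neutrophil-like cells of AD-ABR limit what can be seen there.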
